A study of Mustela putorius furo and Mus musculus with 4 samples.

Results

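Expression of 10 genes of the EGF, FGF and PDGF receptor families was compared between cultured ferret and mouse astrocytes. The genes were taken by symbol: the ErbB receptors Egfr, Erbb2, Erbb3 and Erbb4, the FGF receptors Fgfr1, Fgfr2 and Fgfr3, the PDGF receptors Pdgfra and Pdgfrb, and the neuregulin gene Nrg1. They are 10 of 13373 gene symbols measured in both species, 9 receptor genes and 1 ligand gene, and each had 1 value per species. There were 2 libraries (duplicates) of ferret astrocytes and 2 of mouse astrocytes. The cultures came from the cerebral cortex of ferrets on postnatal day 1 and of ICR mice on postnatal days 1 to 3. Mixed glia were grown in serum, shaken to remove microglia and oligodendrocytes, and replated. Before RNA was taken, cells of both species were kept in serum-free medium that contained heparin-binding EGF-like growth factor, a ligand of EGFR and ERBB4. No genetic change or drug distinguished the groups, and the labels contrast species alone. A ferret pup filled several flasks, whereas mouse pups were pooled in a flask. Whether the duplicates came from separate cultures is not stated, so p-values measure only the spread between these 4 libraries, which may be technical.

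All of these genes but Nrg1 encode receptor tyrosine kinases at the cell surface. A ligand brings receptor chains together, the kinases phosphorylate each other, and adaptor proteins pass the signal to the RAS-MAPK and other cascades. In the ErbB family, EGFR binds EGF-like ligands, ERBB3 and ERBB4 bind neuregulins, and ERBB2 has no known ligand of its own and pairs with the others. ERBB3 has a very weak kinase and signals through its partner. EGFR signalling is known for its effect on astrocyte proliferation and shape, FGFR3 is enriched in astrocytes and their precursors, PDGFRA marks oligodendrocyte precursors, and PDGFRB marks pericytes and fibroblasts.

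Expression is given in FPKM, the number of fragments relative to exon length in kilobases and to the mapped fragments of the library, as deposited by the authors. FPKM is per length, so levels of different genes can be set side by side, but it depends on the gene models of each species. The study also lists read counts, but these were not used here, and the depth of the libraries was not analysed. The lowest values give only the depth ratio of the duplicates, 1.17 for ferret library 1 against 2 and 0.834 for mouse library 1 against 2. Summed over the shared symbols, the ferret duplicates held 227391 and 236543 FPKM and the mouse duplicates 300465 and 308121 FPKM. Differences are ferret minus mouse on the log2(FPKM + 1) scale, which understates the change of low genes. A gene was called higher or lower in ferret astrocytes at a Benjamini-Hochberg adjusted p under 0.05 by limma and an absolute log2 difference above 1. Species, genome annotation and culture cannot be told apart in this design. In these bulk samples, fewer cells of a type and less RNA per cell cannot be told apart either.

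Ferret astrocytes had more Erbb3, Erbb4 and Erbb2 and less Egfr, Fgfr1, Fgfr2, Pdgfrb and Nrg1 than mouse astrocytes. Of the 10 genes, 3 were called higher in ferret astrocytes, 5 were called lower and 2 (Fgfr3 and Pdgfra) were not called. Among the 10204 genes tested, 1336 (13.1%) were called higher and 3069 (30.1%) lower. With the libraries rescaled the balance was nearer even, at 1954 to 2197 genes higher and 2090 to 2536 lower. The median log2 difference was -0.92 over the 10 genes and -0.35 over all genes tested. The values of the 2 ferret libraries did not overlap those of the 2 mouse libraries for any of the 10 genes, as was so for 9607 (94.1%) of all genes tested. Erbb3 and Erbb4 averaged under 1 FPKM in mouse astrocytes and entered the test only through their ferret level. The other 8 genes were above 1 FPKM in both species. For a tested gene averaging under 1 FPKM in a species, here and in the lists below, the filter fixed the direction of the difference.

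**Figure D1:**
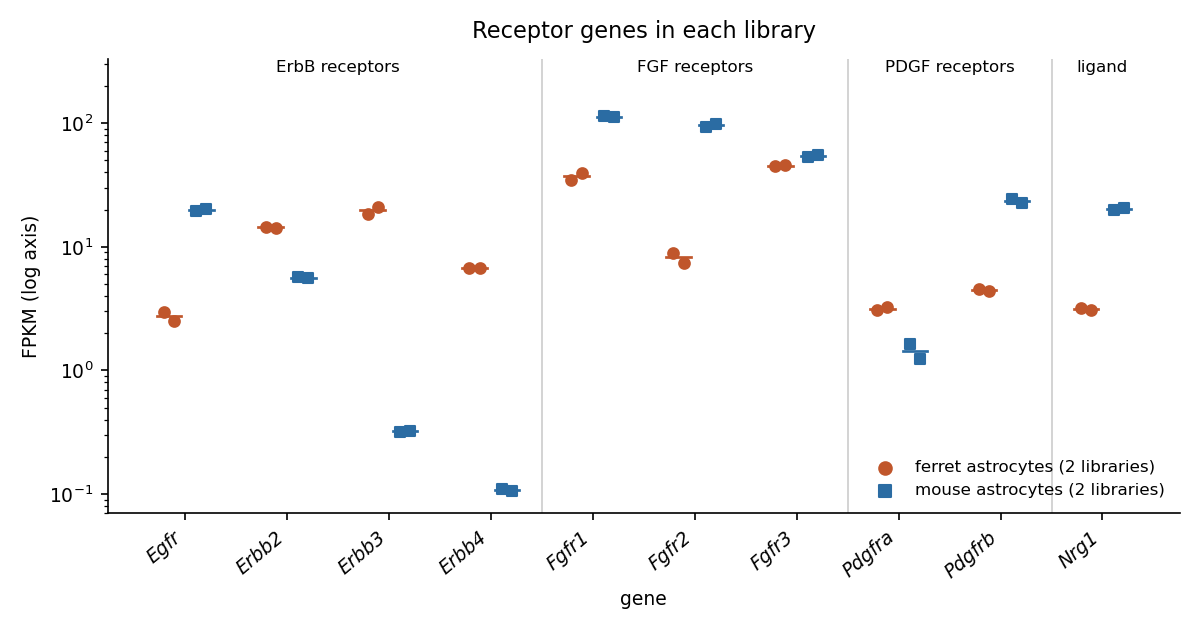
FPKM of the 10 genes in each library, on a log10 axis. Points are the 2 ferret and 2 mouse libraries and short lines their means, and the lowest points are Erbb3 and Erbb4 in mouse astrocytes, at 0.105 to 0.325 FPKM.

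Egfr, the receptor for EGF, TGF-alpha and heparin-binding EGF-like growth factor, was at 2.97 and 2.50 FPKM in the ferret duplicates and 19.6 and 20.3 FPKM in the mouse duplicates. Both mouse libraries lay far above both ferret libraries. The mouse mean (19.9 ± 0.520 FPKM, SD, n = 2) was 7.29 times the ferret mean (2.74 ± 0.331 FPKM, SD, n = 2). The log2 difference was -2.49 (SE 0.081, adjusted p = 1.55e-09 by limma). Egfr ranked 7683 and 7990 among the 13373 shared genes of the ferret duplicates and 3324 and 3245 in the mouse duplicates, where rank 1 is the highest level. In the mouse genome (GRCm38) it occupies bases 16752203 to 16918158 of chromosome 11 (plus strand), with 30 exonic regions.

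Erbb2, which encodes the receptor chain without a known ligand, was at 14.4 and 14.3 FPKM in the ferret duplicates and 5.66 and 5.58 FPKM in the mouse duplicates. The ferret libraries were higher, and the duplicates of each species were nearly equal. The ferret mean (14.3 ± 0.0723 FPKM) was 2.55 times the mouse mean (5.62 ± 0.0539 FPKM), and the log2 difference was 1.21 (adjusted p = 6.24e-08 by limma). Erbb2 occupies bases 98412470 to 98437716 of mouse chromosome 11 (plus strand), and its exons overlap those of Mien1 on the other strand. Mien1 itself was at 65.1 ± 5.74 FPKM in ferret and 74.3 ± 2.08 FPKM in mouse astrocytes and was not called. The library kit marked strand, but whether the counting used it is not given in the sources used here, so reads of the overlapping exons may not be told apart.

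Erbb3, the neuregulin receptor with the weak kinase, was at 18.4 and 21.1 FPKM in the ferret duplicates and 0.319 and 0.325 FPKM in the mouse duplicates. It had the largest log2 difference of the 10 genes, 3.97 (SE 0.085, adjusted p = 1.18e-10 by limma). Its ferret mean (19.8 ± 1.91 FPKM) was 61.5 times its mouse mean (0.322 ± 0.00422 FPKM). Its rank was 2688 and 2444 in the ferret duplicates and 10423 and 10428 in the mouse duplicates. The gene occupies bases 128567523 to 128589652 of mouse chromosome 10 (minus strand), and no other annotated gene overlaps its exons.

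Erbb4, the neuregulin receptor with an active kinase, was at 6.78 and 6.74 FPKM in the ferret duplicates and 0.110 and 0.105 FPKM in the mouse duplicates. The groups were far apart and the ferret libraries were nearly equal. The ferret mean was 62.8 times the mouse mean, close to the ratio for Erbb3. Its log2 difference of 2.81 (adjusted p = 4.36e-10 by limma) was smaller than that of Erbb3, and with 0.1 FPKM added in place of 1 FPKM the differences were 5.05 for Erbb4 and 5.56 for Erbb3. Erbb4 spans 68032186 to 69108059 on the minus strand of mouse chromosome 1.

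Nrg1 encodes neuregulin 1, the ligand of ERBB3 and ERBB4, and went the opposite way to its receptors. It was at 3.23 and 3.07 FPKM in the ferret duplicates and 20.0002 and 20.7804 FPKM in the mouse duplicates. The mouse mean (20.4 ± 0.552 FPKM) was 6.48 times the ferret mean (3.15 ± 0.112 FPKM), and the log2 difference was -2.37 (adjusted p = 7.93e-10 by limma). Within a library, Nrg1 was 0.175 and 0.145 of the Erbb3 level in ferret astrocytes and 62.7 and 64.0 times the Erbb3 level in mouse astrocytes. Nrg1 occupies bases 31814551 to 32884029 of mouse chromosome 8 (minus strand), and its exons overlap Gm26578 on the other strand.

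Erbb3 is also expressed by cells of the oligodendrocyte lineage and by Schwann cells, so marker genes of these cells were measured. Of 14 oligodendrocyte lineage markers, 13 had values in both species and 11 were tested. Of these, 6 were called higher in ferret astrocytes, 0 lower and 5 were not called, and the median log2 difference was 1.17. Here and for the other cell types, summed levels cover the markers with values in both species. The sum was 182.7 and 203.1 FPKM in the ferret duplicates and 70.2 and 71.0 FPKM in the mouse duplicates, and Cnp, a myelin enzyme gene, was the most abundant of these markers in both species. Olig1, a transcription factor gene of the lineage with no ferret value used here, was at 107.4 and 116.9 FPKM in the mouse duplicates, more than the mouse sum without it, so the sums do not show which species had more RNA of this list. Of 10 Schwann cell markers, 8 were tested, 5 were called higher and 1 lower, and the median log2 difference was 1.82. Their summed level was 347.7 and 364.4 FPKM in the ferret duplicates and 161.5 and 174.1 FPKM in the mouse duplicates. The most abundant Schwann cell marker was Gldn, a gene of the node of Ranvier, in ferret astrocytes and Pmp22, a myelin protein gene, in mouse astrocytes.

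None of the markers of either list was listed at 0 in both libraries of a species. Sox10, a transcription factor gene that belongs to both lists and was chosen after its values were seen, was at 28.6 ± 3.26 FPKM in ferret and 0.267 ± 0.0519 FPKM in mouse astrocytes. Other markers of these lists had higher values in mouse astrocytes. Cdh19, a cadherin gene of the Schwann cell lineage, was at 1.22 ± 0.0240 FPKM in ferret and 9.15 ± 0.649 FPKM in mouse astrocytes and was called lower. Olig2, a transcription factor gene of the oligodendrocyte lineage, was at 5.05 ± 0.187 against 9.71 ± 0.131 FPKM and Cspg4, a proteoglycan gene of its precursors, at 1.10 ± 0.0915 against 1.91 ± 0.139 FPKM, and neither was called. The part of these cell types in the Erbb3 difference was not tested. By the distance of log2(FPKM + 1) over the 4 libraries, the genes nearest to Erbb3 were L1cam (0.245), Htr2b (0.252) and Dlx1 (0.262), which encode a cell adhesion molecule, a serotonin receptor and a homeobox factor. L1cam, for example, was at 17.1 and 19.6 FPKM in the ferret duplicates and 0.469 and 0.436 FPKM in the mouse duplicates.

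**Figure D2:**
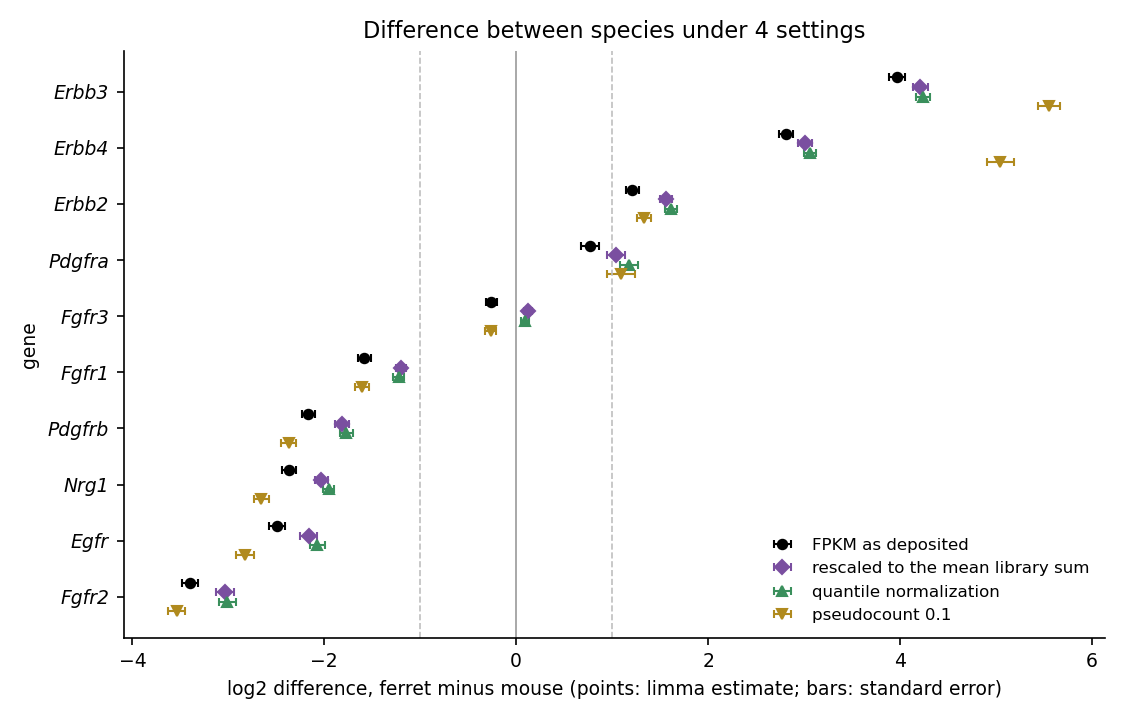
Log2 difference (ferret minus mouse) of the 10 genes under 4 settings, with the standard error of the limma fit as a bar and dashed lines at the size threshold of 1 in either direction. With FPKM as deposited (black) the values run from -3.40 for Fgfr2 to 3.97 for Erbb3, and only Fgfr3 changes side of 0 between the settings drawn.

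The FGF receptor genes were the most abundant of the families in both species. Their summed level was 88.4 and 93.1 FPKM in the ferret duplicates and 260.2 and 267.1 FPKM in the mouse duplicates, a mouse mean 2.91 times the ferret mean. Fgfr1, which encodes an FGF receptor of neurons and glia, was at 34.8 and 39.6 FPKM in the ferret duplicates and 113.4 and 112.9 FPKM in the mouse duplicates. The mouse libraries were nearly equal and lay above both ferret libraries. The mouse mean was 3.04 times the ferret mean, and the log2 difference was -1.58 (SE 0.070, adjusted p = 1.24e-08 by limma). Fgfr1 ranked 1367 and 1230 in the ferret duplicates and 405 and 429 in the mouse duplicates. The gene occupies bases 25513654 to 25575718 of mouse chromosome 8 (plus strand), and Gm16159 on the other strand overlaps its exons.

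Fgfr2 had the most negative log2 difference of the 10 genes. It was at 8.96 and 7.46 FPKM in the ferret duplicates and 93.2 and 98.7 FPKM in the mouse duplicates. The mouse mean (95.9 ± 3.92 FPKM) was 11.7 times the ferret mean (8.21 ± 1.06 FPKM), and the log2 difference was -3.40 (SE 0.082, adjusted p = 2.40e-10 by limma). Its rank was 4776 and 5409 in the ferret duplicates and 539 and 520 in the mouse duplicates. The genes nearest to it over the 4 libraries were Taf13 (distance 0.107), Snap47 (0.149) and P4ha3 (0.252), which encode a subunit of the basal transcription factor TFIID, a SNARE protein and a collagen prolyl hydroxylase. Taf13 was at 9.29 and 7.05 FPKM in the ferret duplicates and 95.4 and 102.6 FPKM in the mouse duplicates.

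The mouse model of Fgfr2 limits this value. In the annotation used here it ran from 130162451 to 133123350 on the minus strand of chromosome 7, a span of 2960900 bp that held 30 protein-coding genes, and the longest gap between its exonic regions was 2815494 bp. Its exons overlap those of Ctbp2 on the same strand. Ctbp2, a transcriptional corepressor gene, was at 26.2 and 27.3 FPKM in the mouse duplicates, and no ferret value of that symbol was used here. This annotation release is not the one the authors used, and how much of the Fgfr2 level came from the shared exons was not tested.

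Fgfr3, the FGF receptor enriched in astrocytes, differed least. It was at 44.7 and 46.0 FPKM in the ferret duplicates and 53.7 and 55.5 FPKM in the mouse duplicates. The groups did not overlap, but the mouse mean (54.6 ± 1.28 FPKM) was 1.203 times the ferret mean (45.4 ± 0.937 FPKM). The log2 difference of -0.26 (SE 0.058, adjusted p = 0.00175 by limma) passed the adjusted p and not the size threshold, so the gene was not called. Relative to the median of all genes tested the difference was 0.09, and its sign turned positive under the rescalings, at 0.09 to 0.12. Fgfr3 ranked 1049 and 1048 in the ferret duplicates and 1128 and 1111 in the mouse duplicates. It occupies bases 33721674 to 33737068 of mouse chromosome 5 (plus strand), where G630022F23Rik on the other strand overlaps its exons. The mouse pseudogene Fgfr3-ps was listed at only 5.51e-07 and 6.43e-07 FPKM.

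Most astrocyte markers were lower in ferret astrocytes. Of 12 astrocyte markers, all were tested, 1 was called higher in ferret astrocytes and 8 lower, and the median log2 difference was -1.58. They summed to 3727 and 3840 FPKM in the ferret duplicates and 4223 and 4575 FPKM in the mouse duplicates. The most abundant was Aldoc, the glycolytic enzyme aldolase C, in ferret astrocytes and Gfap, the astrocyte intermediate filament, in mouse astrocytes. Gfap itself was at 1502 ± 29.1 FPKM in ferret and 1487 ± 82.7 FPKM in mouse astrocytes and was not called, so both cultures carried this defining marker at a high level. The marker called higher was S100b, which encodes a calcium-binding protein, at 245.6 ± 2.59 FPKM in ferret and 60.2 ± 4.05 FPKM in mouse astrocytes. Slc1a2, the glutamate transporter gene of mature astrocytes, was near 0 in ferret astrocytes (0.155 ± 0.0319 FPKM) and at 49.4 ± 3.33 FPKM in mouse astrocytes. The part of astrocyte state in the FGF receptor differences was not tested.

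The PDGF receptor genes were the least abundant family in ferret astrocytes, at a summed 7.63 and 7.62 FPKM, against 26.1 and 23.9 FPKM in the mouse duplicates. Pdgfra, the receptor of oligodendrocyte precursors, was at 3.07 and 3.23 FPKM in the ferret duplicates and 1.64 and 1.23 FPKM in the mouse duplicates. The ferret mean (3.15 ± 0.117 FPKM) was 2.19 times the mouse mean (1.44 ± 0.288 FPKM). The log2 difference of 0.77 (adjusted p = 2.77e-05 by limma) was below the size threshold with 1 FPKM added, and was 1.09 with 0.1 FPKM added, where the gene was called. It was also called higher under each of 3 rescalings, with differences of 1.04 to 1.36. Pdgfra occupies bases 75152292 to 75198215 of mouse chromosome 5 (plus strand), and Gm42802, Gm42803 and Mir7025 overlap its exons.

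Pdgfrb, the receptor of pericytes and fibroblasts, was at 4.57 and 4.38 FPKM in the ferret duplicates and 24.5 and 22.7 FPKM in the mouse duplicates. The mouse libraries were higher and the spread between duplicates was small beside the gap. The mouse mean (23.6 ± 1.28 FPKM) was 5.27 times the ferret mean (4.48 ± 0.128 FPKM), and the log2 difference was -2.16 (SE 0.071, adjusted p = 1.59e-09 by limma).

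Mural cells and meningeal fibroblasts express Pdgfrb, so their markers were measured too. Of 11 mural cell markers, 7 were tested, 2 were called higher and 3 lower, and the median log2 difference was -0.85. They summed to 191.6 and 167.3 FPKM in the ferret duplicates and 1113 and 1157 FPKM in the mouse duplicates, mostly as Tagln, a smooth muscle gene that cultured cells also express. Rgs5, a defining pericyte marker, was listed at 0 in both ferret libraries and was at 0.588 ± 0.0175 FPKM in mouse astrocytes, below the filter. The markers called higher were Kcnj8, a pericyte potassium channel gene, at 11.7 and 11.3 FPKM in ferret and 0.0139 and 0.0232 FPKM in mouse astrocytes, and Higd1b, at 1.77 and 1.45 against 0.0984 and 0 FPKM. Both entered the test only through their ferret level, so the filter set their direction. A mural cell marker called lower likewise entered only through its mouse level. Of 12 meningeal fibroblast markers, 10 were tested and 10 were called lower in ferret astrocytes, and the median log2 difference was -3.27. Several of these, Serpinf1 among them, entered the test only through their mouse level, so the filter set their direction. The fibroblast markers summed to 127.0 and 112.1 FPKM in the ferret duplicates and 1605 and 1596 FPKM in the mouse duplicates. The most abundant was the collagen gene Col1a2 in ferret and Serpinf1, which encodes a secreted serpin, in mouse astrocytes. Slc22a6 was listed at 0 in all 4 libraries. The part of these cells in the Pdgfrb difference was not tested.

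Other cell types were checked in the same way. Of 15 microglia markers, 14 were tested, 0 were called higher and 13 lower in ferret astrocytes, and the median log2 difference was -4.38. Their sum was 74.2 and 73.9 FPKM in the ferret duplicates and 798 and 771 FPKM in the mouse duplicates, where Tyrobp had the highest mean of the summed markers but overlapped C1qc between the duplicates. C1qa, a complement gene with no ferret value used here, was higher still in the mouse duplicates, at 193.1 and 192.8 FPKM. Cx3cr1, a microglial chemokine receptor gene, was listed at 0 in both ferret libraries. Of 12 neuron markers, 5 were tested, 4 were called higher and 0 lower, with a median of 1.25. Most of those called higher entered the test only through their ferret level, so the filter set their direction. The neuron marker sums were 33.1 and 34.3 against 32.7 and 34.02 FPKM, mostly Map2. Stmn2, a neuron marker with no ferret value used here, was outside these sums and at 123.6 and 127.4 FPKM in the mouse duplicates. Of 10 endothelial markers, 3 were tested and all 3 were called lower, with a median of -1.97. All 3 entered the test only through their mouse level, so the filter set their direction. The endothelial sums were 0.821 and 0.874 against 29.0 and 29.4 FPKM. The endothelial marker with the highest mean was Flt1 in ferret astrocytes, where its low values overlapped those of Vwf, and Cdh5 in mouse astrocytes. Pecam1, Cdh5 and Tek were listed at 0 in both ferret libraries and Cldn5 in both mouse libraries. The part of these cells in the receptor differences was not tested.

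The share of a gene in the summed FPKM of its family does not change when a library is multiplied by a common factor. Quantile normalization can change it, and it still depends on the gene models of each species. Of the ErbB total, Egfr made up 6.98% and 5.60% in the ferret duplicates and 76.3% and 77.2% in the mouse duplicates. Erbb3 made up 43.3% and 47.3% in ferret and 1.24% and 1.23% in mouse astrocytes. Erbb2 was at 33.8% and 32.0% against 22.05% and 21.2%, and Erbb4 at 15.9% and 15.1% against 0.429% and 0.400%. So Egfr was the main ErbB gene of mouse astrocytes, and Erbb3 followed by Erbb2 led in ferret astrocytes.

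Of the FGF receptor total, Fgfr3 made up 50.6% and 49.5% in the ferret duplicates and 20.6% and 20.8% in the mouse duplicates. Fgfr2 made up 10.1% and 8.01% in ferret and 35.8% and 37.0% in mouse astrocytes. The Fgfr1 share was 39.3% and 42.5% in ferret and 43.6% and 42.3% in mouse astrocytes, and these values overlapped. The limit that the mouse Fgfr2 model sets applies to all mouse shares of this family and to its summed level. Of the PDGF receptor total, Pdgfra made up 40.2% and 42.4% in ferret and 6.28% and 5.16% in mouse astrocytes, and Pdgfrb the rest. Within a library, Pdgfrb was 1.49 and 1.36 times the Pdgfra level in ferret astrocytes and 14.9 and 18.4 times in mouse astrocytes.

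In 8 of the 9 receptor genes the shares of the species did not overlap. Each of these had an exact two-sided permutation p of 0.333, the smallest that 2 libraries against 2 can give. Shares within a family depend on each other, and those of Pdgfra and Pdgfrb are a single result. FPKM did not overlap for 94.1% of all genes tested, so lack of overlap was common. For Fgfr1 the exact permutation p was 0.667. With so few libraries this test cannot reach 0.05.

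**Figure D3:**
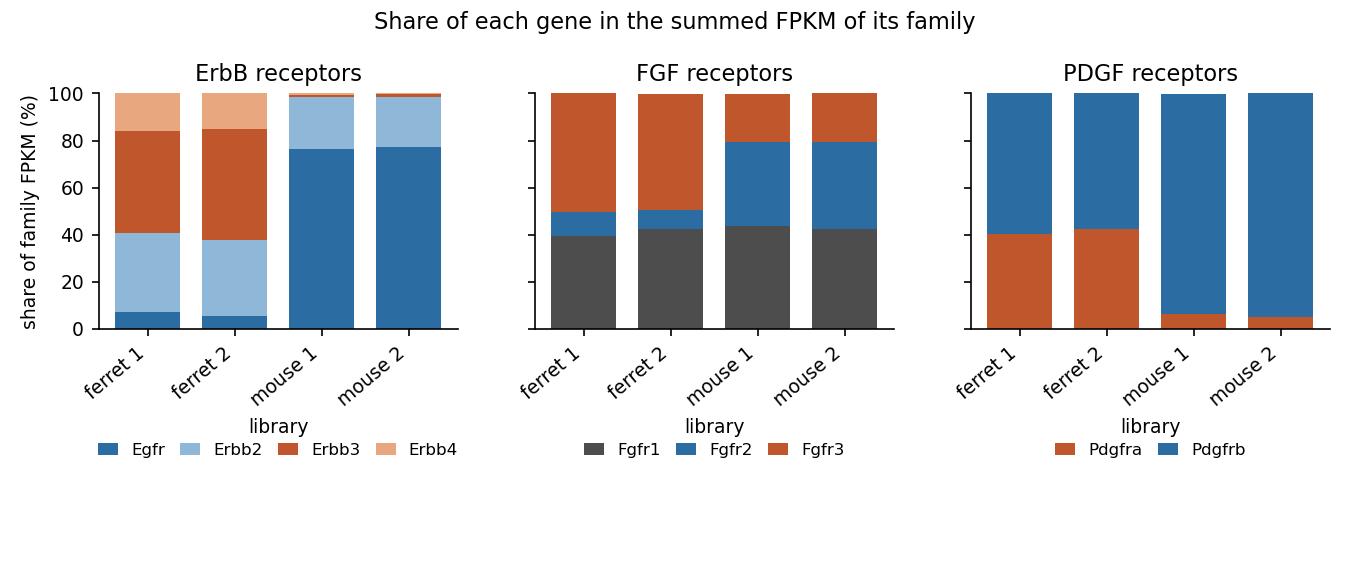
Share (%) of each gene in the summed FPKM of the ErbB, FGF receptor and PDGF receptor genes, as stacked bars for the 2 ferret and 2 mouse libraries. Egfr fills 76.3% and 77.2% of the ErbB bar in the mouse duplicates and 6.98% and 5.60% in the ferret duplicates.

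In order of FPKM, ferret astrocytes had Fgfr3, Fgfr1, Erbb3, Erbb2, Fgfr2, Erbb4, Pdgfrb, Pdgfra, Nrg1 and Egfr from highest to lowest. The values of Pdgfra and Nrg1 overlapped between the libraries, so these neighbours did not differ beyond their spread. Mouse astrocytes had Fgfr1, Fgfr2, Fgfr3, Pdgfrb, Nrg1, Egfr, Erbb2, Pdgfra, Erbb3 and Erbb4, and the values of Nrg1 and Egfr overlapped. The other neighbours were separate in both libraries of their species. Egfr was thus the lowest of the 10 in ferret astrocytes, and Erbb4 and Erbb3 were the lowest in mouse astrocytes.

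The ligands of these receptors were measured in the same libraries. Of 10 other EGF family ligands, 8 had values in both species and 5 passed the filter. Of these 5, 3 were called higher and 2 lower in ferret astrocytes, and the median log2 difference was 1.32. Hbegf, which encodes the ligand that was also in the medium, was at 235.8 and 225.6 FPKM in the ferret duplicates and 43.8 and 40.9 FPKM in the mouse duplicates. The ferret libraries had 5.45 times the mouse mean, on the log2 scale 2.42 (adjusted p = 3.11e-10 by limma), so this EGFR ligand was higher where Egfr was lower. Tgfa, another EGFR ligand, was at 5.36 and 4.72 FPKM in ferret and 1.36 and 1.48 FPKM in mouse astrocytes. Btc, which encodes betacellulin, was at 4.998 and 3.74 against 0.119 and 0.164 FPKM. Nrg2, a second neuregulin gene, was at 0 and 0.111 FPKM in ferret and 4.48 and 6.40 FPKM in mouse astrocytes, and Ereg, which encodes epiregulin, at 0.0433 and 0.102 against 3.04 and 2.71 FPKM. Both were called lower, as Nrg1 was. Btc averaged under 1 FPKM in mouse astrocytes, and Nrg2 and Ereg in ferret astrocytes, so the filter set the direction of all 3.

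Of 15 FGF ligands, 14 had values in both species and only 4 passed the filter. Of these, 1 was called higher and 2 lower, and the median log2 difference was -1.54. Fgf1, a ligand of all FGF receptors, was at 116.1 and 109.3 FPKM in the ferret duplicates and 32.1 and 34.7 FPKM in the mouse duplicates (log2 difference 1.72). Fgf18 was at 0.146 and 0.228 FPKM in ferret and 7.19 and 6.93 FPKM in mouse astrocytes. Fgf7, whose receptor is an isoform of FGFR2, was at 0 and 0.0396 against 4.08 and 3.63 FPKM, and both were called lower. Fgf18 and Fgf7 entered the test only through their mouse level, so the filter set their direction, and the list median includes them. Fgf4, Fgf6, Fgf8 and Fgf20 were listed at 0 in all 4 libraries, and Fgf16 in both ferret libraries.

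All 4 PDGF ligands were tested, and 0 were called higher and 2 lower, and the median log2 difference was -1.22. Pdgfd, which encodes a ligand of PDGFRB, was at 0.225 and 0.264 FPKM in the ferret duplicates and 18.7 and 18.9 FPKM in the mouse duplicates (log2 difference -3.99). Pdgfc, whose product binds PDGFRA, was at 2.58 and 2.31 against 11.5 and 12.3 FPKM. Pdgfa and Pdgfb were not called. Pdgfd, like its receptor gene Pdgfrb, was called lower in ferret astrocytes. Pdgfd entered the test only through its mouse level, so the filter set its direction, and the list median includes it.

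**Figure D4:**
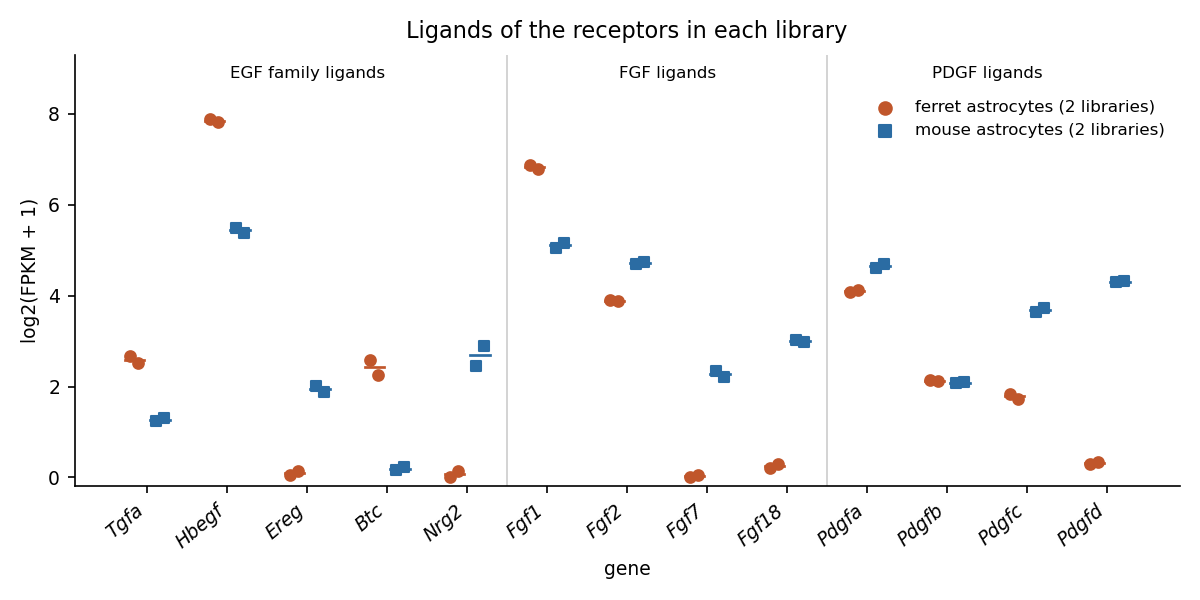
FPKM of the EGF family, FGF and PDGF ligand genes that were tested, in each library, on a log2(FPKM + 1) axis. Hbegf and Fgf1 are the highest ligand genes in ferret astrocytes, at 225.6 to 235.8 and 109.3 to 116.1 FPKM.

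Of 15 further FGF and PDGF receptors and heparan sulfate co-receptors of FGF, 10 were tested, 1 was called higher and 6 lower, and the median log2 difference was -1.58. Gpc1, a glypican gene, was at 60.0 and 70.9 FPKM in the ferret duplicates and 20.7 and 21.5 FPKM in the mouse duplicates. Gpc4, another glypican gene, went the other way, at 28.7 and 25.8 against 148.1 and 152.8 FPKM. Fgfrl1, which encodes an FGF receptor without a kinase domain, was at 20.7 and 22.5 against 94.9 and 104.9 FPKM. Pdgfrl, a PDGF receptor-like gene that is also in the fibroblast list, was at 0.309 and 0.392 against 44.5 and 46.6 FPKM, a log2 difference of -5.11. Fgfr4, the remaining FGF receptor gene with a kinase, stayed under the filter at 0.369 and 0.401 FPKM in ferret and 0.0746 and 0.0778 FPKM in mouse astrocytes.

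Genes that release EGF family ligands and genes that act behind the receptors were tested in the same fit. All 6 ligand shedding genes were tested, 0 were called higher and 2 lower, and the median log2 difference was -0.48. The lower ones were Adam9, a membrane protease gene (-1.08), and Rhbdf1, an inactive rhomboid gene that helps the sheddase mature (-1.26). Both lost the call under each of 3 rescalings, at -0.70 to -0.73 for Adam9 and -0.84 to -0.96 for Rhbdf1. Of 18 receptor adaptor genes, 17 were tested, 2 were called higher and 4 lower, with a median of -0.49. The adaptor gene Shc1 was at 99.97 and 112.4 FPKM in ferret and 40.4 and 40.2 FPKM in mouse astrocytes, and its relative Shc3 at 32.6 and 39.0 against 6.42 and 6.96 FPKM. Grb10, an adaptor that restrains receptor signalling, was at 5.64 and 6.32 against 65.2 and 63.1 FPKM, a log2 difference of -3.22. Nck1 (-2.21) and Crk (-1.01) were also called lower. Crk lost the call under each rescaling (-0.63 to -0.64), without ferret library 1 (-0.99) and without mouse library 2 (-0.99).

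Of 14 RAS-MAPK core genes, 11 were tested, 2 were called higher, 2 lower and 7 were not called, and the median log2 difference was 0.17. Map2k1, which encodes the kinase MEK1, was at 171.7 and 183.7 FPKM in the ferret duplicates and 54.05 and 56.5 FPKM in the mouse duplicates. Rps6ka3, an ERK target kinase gene, was at 41.3 and 39.7 against 12.1 and 13.8 FPKM. Araf (-1.12) and Rps6ka1 (-1.36) were called lower. Araf lost the call under each rescaling (-0.74 to -0.76) and Rps6ka1 under quantile normalization (-0.95).

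Of 22 feedback inhibitor genes, 20 were tested, 6 were called higher, 4 lower and 10 were not called, and the median log2 difference was 0.20. Nf1, which encodes the RAS inactivator neurofibromin, was at 23.9 and 23.4 FPKM in ferret and 7.74 and 7.21 FPKM in mouse astrocytes. Flrt3, whose product binds FGF receptors and is known to promote their signalling, was at 15.0 and 13.7 against 1.37 and 1.40 FPKM, whereas its relative Flrt2 was at 0.756 and 0.521 against 16.1 and 15.2 FPKM. Without these FLRT genes, 18 were tested, 5 were called higher and 3 lower. The Sprouty gene Spry1 was at 10.2 and 10.9 against 2.144 and 2.174 FPKM. Lrig1, a negative regulator of ErbB receptors (-1.05), and Spred2, an inhibitor of RAS-MAPK signalling (-1.27), were called lower. Both lost the call under each rescaling, at -0.68 to -0.69 for Lrig1 and -0.86 to -0.998 for Spred2. The whole list then held 8 or 9 genes called higher and 2 lower. Lrig1 also lost it without mouse library 2 (-0.98).

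Of 16 ERK-induced transcription factor genes, 14 were tested, 5 were called higher and 1 lower, and the median log2 difference was 0.69. Rescaling gave 8 higher with a sum of 1000000, 7 with the mean of the library sums and 8 with quantile normalization. Etv1, an ETS factor gene induced by FGF signalling, was at 29.2 and 33.7 FPKM in the ferret duplicates and 2.56 and 2.87 FPKM in the mouse duplicates (log2 difference 3.12). Its relative Etv4 was at 13.1 and 14.6 against 4.59 and 4.03 FPKM. Ier3, an immediate early gene, was lower, at 10.7 and 11.9 against 41.4 and 41.5 FPKM. Junb, an AP-1 gene, was at 18.2 and 19.2 FPKM in ferret astrocytes and was listed at 0 in both mouse libraries, which can be a failed estimate, so no fold is given. The counts of this list include it, and without Junb 4 of 13 genes were called higher, at a median of 0.69. Over all 9 lists, 91 of 120 genes were tested, 20 were called higher and 25 lower. The median log2 difference was -0.26 against -0.35 over all genes tested. Without Junb, 19 of 90 were called higher and 25 lower, at a median of -0.29. Among all genes tested, 13.1% were called higher and 30.1% lower. The balance of the list calls, Junb included, turned round under the rescalings. It was 26 higher and 20 lower with a sum of 1000000 in each library. With the mean of the library sums it was 24 and 19, and with quantile normalization 26 and 18. Over all 10204 genes tested, the rescalings gave, in the same order, 2197 higher and 2536 lower, 1954 and 2215, and 2076 and 2090. Of these calls over all genes, 46.4%, 46.9% and 49.8% were higher, against 30.3% as deposited.

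**Figure D5:**
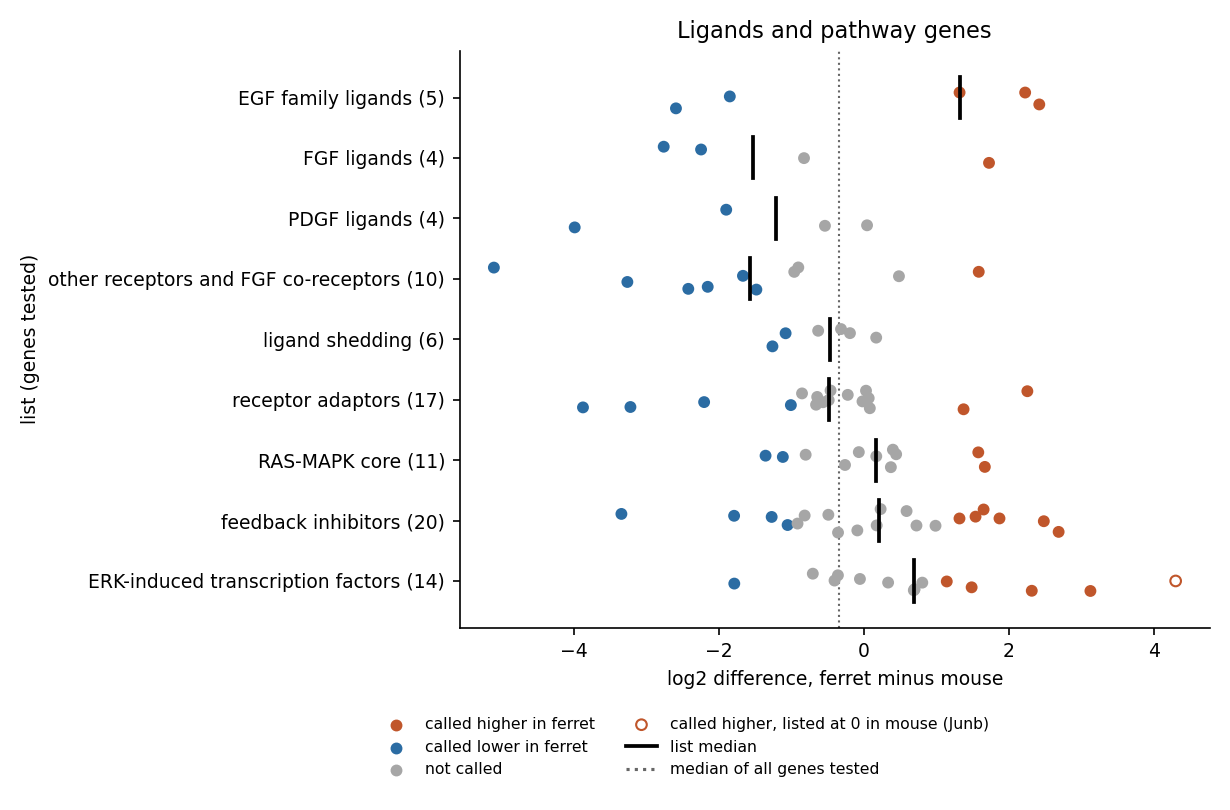
Log2 difference (ferret minus mouse, log2(FPKM + 1)) of each tested gene in the 9 lists of ligands and pathway genes, with the list median as a black bar and the median of all genes tested, -0.35, as a dotted line. Orange points were called higher and blue points lower, the open point is Junb, and the list medians run from -1.58 for further receptors and co-receptors to 1.32 for EGF family ligands.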

How the data were processed

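Poly(A)-selected, stranded libraries of ferret astrocytes (2) and mouse astrocytes (2) were sequenced. The authors used bcl2fastq 2.17, aligned reads with STAR 2.7.0f to the genome of each species and deposited FPKM per gene from Cufflinks 2.2.1, with Ensembl 99 annotation. FPKM was scaled to the mapped fragments and exon length of each library by the authors, and no counts were used here.

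Symbols were matched without regard to case, and of repeated symbols (7 of the shared ones in ferret, 13 in mouse) the row with the highest species mean was kept. limma 3.58.1 (R 4.3.3, empirical Bayes with trend) was fitted to log2(FPKM + 1) for the 10204 symbols with a mean of at least 1 FPKM in a species, on the 4 libraries together, two-sided. Shares were tested by exact permutation (scipy 1.17.1). The members and lists were chosen with earlier results of these data known. Named were every member, in each pathway list the 3 called genes with the highest mean in each direction, in each marker list the most abundant gene and those listed at 0 in a species, and the 3 genes nearest to the members with the largest and the most negative difference. Named outside this rule were Slc1a2, S100b, Sox10, Cdh19, Olig1, Olig2, Cspg4, C1qa, C1qc, Stmn2, Vwf, Kcnj8, Higd1b, Mien1, Ctbp2 and other genes that overlap the members, Fgfr3-ps, Fgfr4, Pdgfa, Pdgfb, the FGF ligands listed at 0, and Hras, Nras, Map2k2, Errfi1 and Gpc6. Mouse positions are those of GENCODE M21 on GRCm38, 1-based, a release other than the authors'. Sequences were not used here, and some marker genes are not reported here. The duplicates differed by a median absolute log2 value of 0.081 in ferret and 0.065 in mouse astrocytes.

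Alternatives were a pseudocount of 0.1, no filter, a minimum of 5 FPKM, 3 rescalings, the replicate number as a block, other choices for repeated symbols and each library left out.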

Additional observations from a re-analysis of the deposited data

How the results depend on the processing

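The 8 called genes of the 10, 7 receptor genes and Nrg1, kept direction and call in every one of 13 alternatives. Rescaling the libraries to a common sum moved the median log2 difference of all genes from -0.35 to -0.01 (sum of 1000000 over the shared symbols), -0.01 (mean of the 4 library sums) and 0.05 (quantile normalization). The genes called higher then numbered 2197, 1954 and 2076 against 1336, and those called lower 2536, 2215 and 2090 against 3069, so that 46.4%, 46.9% and 49.8% of calls were higher against 30.3%. The difference of Fgfr3 changed sign to 0.12, 0.12 and 0.089 in the same order and stayed under the size threshold. Pdgfra was called at 1.36, 1.04 and 1.18 in that order and at 1.09 with a pseudocount of 0.1. The counts of lists also moved with rescaling, with 0 lower ligand shedding genes and 2 lower feedback inhibitor genes under each, 9, 8 and 9 higher feedback inhibitor genes (6 as deposited), 1, 1 and 0 lower RAS-MAPK core genes, and 8 higher ERK-induced genes under a sum of 1000000 and under quantile normalization. With the replicate number as a block, 1342 genes were called higher and 3072 lower, and no call of the 10 genes changed. Same-numbered libraries had deviations that correlated at 0.00995, so no shared deviation was seen. The labels do not say whether same-numbered libraries were handled together. Leaving out each library gave 1320 to 1374 higher and 3051 to 3096 lower genes. There the lone library is assumed to vary like the other species. The read counts that the study lists were not used here, so levels under 1 FPKM, as for Erbb3 and Erbb4 in mouse astrocytes, are given without a counting error.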

Other observations

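Some pathway genes had mouse values only, under the symbols used here, and entered no comparison. Hras and Nras, which encode RAS proteins, were at 39.99 and 41.7 FPKM and at 34.4 and 35.9 FPKM in the 2 mouse libraries. Map2k2, which encodes the kinase MEK2, was at 47.4 and 48.3 FPKM. Errfi1, an inhibitor of ErbB kinases, was at 11.1 and 11.6 FPKM, and Gpc6, a glypican gene, at 30.2 and 29.6 FPKM.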
